A study of Mus with 4 samples.

Results

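Circular RNAs (circRNAs) form when a splice donor joins an acceptor that lies upstream of it, so that a sequencing read over the joined ends marks a ring. A host gene can give many rings, because different donors and acceptors can be paired, and the ring is named by the coordinates of its ends. CircRNAs are abundant in neural tissue such as the retina and are degraded slowly because they have no free ends.

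The circRNAs described here were chosen by where they were listed: in both libraries of VLDLR-deleted mice and in neither wild-type library, outside chromosomes X and Y. VLDLR is the very-low-density lipoprotein receptor, a lipid uptake and Reelin receptor. The chosen circRNAs number 458 of 44073 circRNAs in the series. They are 3.69% of the 12408 circRNAs listed in both deletion libraries outside these chromosomes (95% exact binomial interval 3.37% to 4.04%). Listing and junction reads between the genotypes are therefore what chose them, and are given below as a description with no test. On chromosome X 9 circRNAs had the same listing and were left out with 1 more on an unplaced scaffold of that chromosome.

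The ocular tissue was of mouse pups that either were wild type (C57BL/6J) or carried the VLDLR deletion. Every group spent postnatal day 7 (P7) to P12 in 75% oxygen, which in mice arrests and prunes the growing retinal vessels. Tissue was taken at P12 or, after a day in room air, at P13, so that age cannot be told apart from the return to air. Every one of the 4 groups (wild type at P12 and at P13, deletion at P12 and at P13) was 1 library, with no replicate. How many animals were pooled, and which allele carries the deletion, is not stated in the labels. The sample titles name no strain for the deletion mice, so whether their background matched the wild type is not known here. No circRNA of Vldlr itself was listed (0 in the 4 libraries), and the targeted gene gave no check of the labels.

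The libraries held 662811 (P12) and 759063 (P13) junction reads for wild type and 299723 (P12) and 341873 (P13) for the deletion. Every listed circRNA had at least 2 reads. The wild-type libraries came from 1 sequencing run and the deletion libraries from another, with 0 runs shared, so that genotype and run cannot be told apart. CircRNAs of 47 photoreceptor genes were listed in all libraries (between 290 and 478 of them), so that retinal transcripts were present in each. In bulk tissue, fewer cells of a type and less RNA per cell cannot be told apart.

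The share of circRNAs unlisted in wild type was lower at each higher read level. Among circRNAs with 4 to 5 reads over both deletion libraries, 133 of 780 were unlisted in wild type, or 17.1% (14.5% to 19.9%). The share was 10.1% at 6 to 7 reads, 5.75% at 8 to 9, 3.47% at 10 to 14 and 1.17% at 15 to 19. With 20 or more reads it was 12 of 5048, or 0.238% (0.123% to 0.415%). At 50 or more reads it was 0 of 2108, for which the exact interval reached 0.175%. No circRNA listed in both deletion libraries with more than 47 reads was thus unlisted in both wild-type libraries.

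The opposite listing was more common. Of 19898 circRNAs listed in both wild-type libraries, 4325 were unlisted in both deletion libraries, or 21.7% (21.2% to 22.3%). At 4 to 5 wild-type reads this share was 63.9% (60.4% to 67.3%), and at 50 or more it was 0.455% (0.278% to 0.701%). The 2 shares are not on equal terms, since the wild-type libraries were deeper: with both thinned to 299723 reads, 1084 circRNAs in place of 458 were unlisted in wild type. Of the 4596 circRNAs listed in the deletion alone, 1774 were in the P12 library only, 2364 in the P13 library only and 9.97% (9.11% to 10.9%) in both. Of the 18092 listed in wild type alone, 23.9% (23.3% to 24.5%) were in both libraries.

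**Figure D1:**
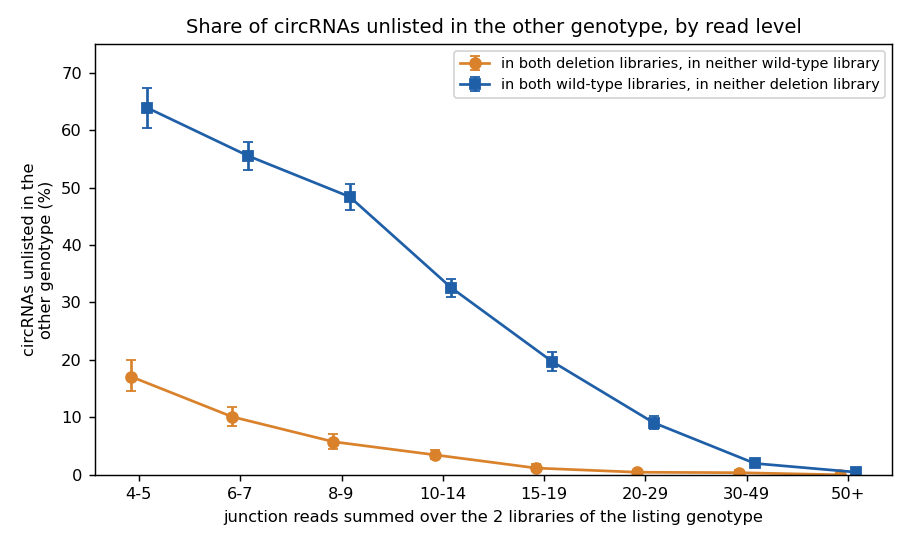
Percent of circRNAs unlisted in both libraries of the other genotype (y axis), against the junction reads summed over the 2 libraries that list them (x axis, in classes). Orange points are circRNAs of the deletion unlisted in wild type, blue squares those of wild type unlisted in the deletion, and bars are 95% exact binomial intervals that cover counting error only. The orange share falls from 17.1% at 4 to 5 reads to 0.0% at 50 or more, and the blue share from 63.9% to 0.455%.

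Most of these circRNAs were therefore rare. The median was 7 reads over both deletion libraries (quartiles 5 and 9, highest 47), against 16 (9 and 34, highest 5665) for the 11950 circRNAs of both deletion libraries that wild type listed too. They took 1856 reads in deletion P12, or 0.619% of the library (0.591% to 0.648%), and 1883 in deletion P13, or 0.551% (0.526% to 0.576%). In each deletion library 53 had the least that is listed, 2 reads, among them those of Arfgef1, which encodes an exchange factor for ARF GTPases (chromosome 1, 10184386 to 10204909), and of Bivm (chromosome 1, 44128728 to 44137116). At least 5 reads in each library were held by 62, and at least 10 by 8. The number rests on each library: it was 1111 when absence was judged from wild type P12 alone and 916 from wild type P13 alone. It was 2822 when listing in deletion P13 sufficed and 2232 when listing in deletion P12 did.

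Just outside the set were 158 circRNAs that 1 wild-type library listed at 2 reads. The largest came from Pcsk6, a proprotein convertase gene (chromosome 7, 65910202 to 65983849), with 2 reads in wild type P12, unlisted at P13, against 65 (P12) and 3 (P13) in the deletion. One of Sag, the rod arrestin gene (chromosome 1, 87831839 to 87837333), had 2 reads in wild type P13 and 13 and 21 in the deletion. Another of Phkb, a phosphorylase kinase subunit gene (chromosome 8, 85896430 to 85901957), had 2 in wild type P13 and 12 and 11 in the deletion. These neighbours of the set had as many deletion reads as its leading members.

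The 25 circRNAs with the most reads held between 15 and 47 over both deletion libraries. Of these, 21 were of the exon class, 2 of the intron class and 2 intergenic. Nedd4, Dgki, Mtmr7, Tcf12 and Invs hosted the leading 5.

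**Figure D2:**
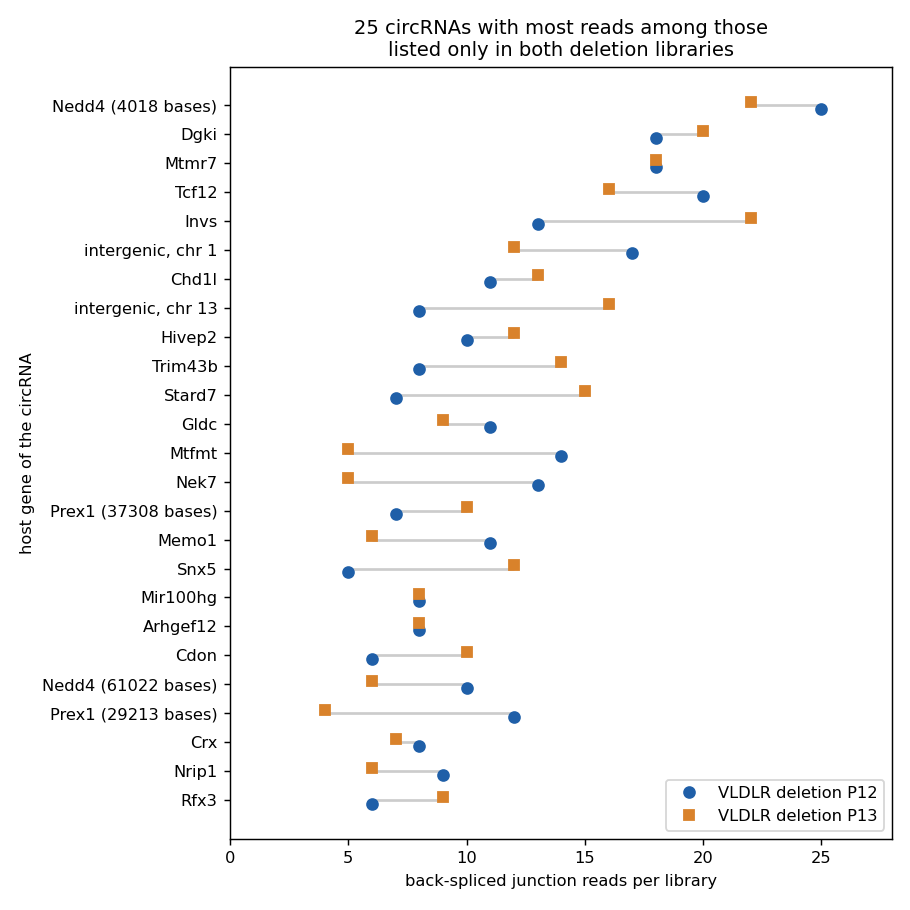
Back-spliced junction reads (x axis) of the 25 circRNAs with the most reads among those listed only in both deletion libraries, by host gene (y axis). Blue circles are deletion P12 and orange squares deletion P13, 1 library each, joined by a grey line; none was listed in wild type. The leading Nedd4 circRNA has 25 and 22 reads, and the last of the 25, of Rfx3, has 6 and 9.

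Nedd4 encodes a HECT-type ubiquitin ligase. Its leading ring (chromosome 9, 72731222 to 72735239, plus strand, exon class) had 25 reads in deletion P12 and 22 in deletion P13 and was unlisted in both wild-type libraries. At the level of the deletion it would have had 48.9 reads in wild type P12 and 55.4 in wild type P13. Against a floor of 3 reads per wild-type library, the scaled deletion counts were 18.4 (P12) and 16.3 (P13) times as high. These values assume that a ring unlisted in wild type had no more than the floor there, and they leave out counting error. They come from the reads that chose the ring and are a description. Nedd4 gave another 2 such rings, 72669952 to 72730973 with 10 and 6 reads and 72731222 to 72742760 with 2 and 3.

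Each of the 3 Nedd4 rings had an end that wild type did not use. Position 72731222, the acceptor of 2 of them, and the donor positions 72735239 and 72730973 were ends of no circRNA listed in wild type. The commonest Nedd4 ring (72669952 to 72686114) had 131 reads in each wild-type library, against 42 (P12) and 48 (P13) in the deletion libraries. All 32 other Nedd4 rings together had 858 and 794 reads per 1000000 scaled junction reads (RPM) in wild type, against 816 and 791 in the deletion. Their sum was thus alike in the 4 libraries, but single rings among them differed in both directions. Before scaling, ring 72732592 to 72739528 had 19 wild-type against 2 deletion reads at P12, and 32 against 6 at P13. Ring 72669952 to 72712266 went the other way, with 11 wild-type against 18 deletion reads at P12, and 7 against 18 at P13. The 3 rings of the set added 143 and 107 RPM in the deletion.

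Dgki encodes a diacylglycerol kinase, an enzyme that ends diacylglycerol signalling, and is expressed in neurons. Its leading ring (chromosome 6, 37087629 to 37149657, minus strand, exon class) had 18 and 20 reads in deletion P12 and P13. Another 2 with the same listing ran from 37063897 (7 and 7 reads) and from 37096248 (5 and 5 reads) to the same end. That end, 37149657, lies on the acceptor side of the minus strand, and it was used by 5 circRNAs of the deletion with 38 reads at P12 and 32 at P13. No circRNA listed in wild type ended there, although 47 other Dgki rings were listed in wild type. Those other rings, 53 over the 4 libraries, had 1220 and 1240 RPM in wild type, against 1100 and 1050 in the deletion.

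Invs encodes inversin, a protein of the primary cilium that acts in Wnt signalling. Its ring (chromosome 4, 48382105 to 48385272, plus strand, exon class) had 13 and 22 reads in deletion P12 and P13, and neither of its ends was used by a circRNA of wild type. In the deletion, 48385272 also ended a ring of 5 reads in the P12 library, and 48382105 began one of 2 reads there. The other Invs rings were sparse, with 27 (P12) and 26 (P13) reads in wild type and 7 (P12) and 13 (P13) in the deletion. A single ring thus held most Invs reads in both deletion libraries, whereas in wild type the leading ring was 48389959 to 48398279 (24 and 23 reads, unlisted in deletion P12 and 11 reads in deletion P13).

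Mtmr7, a gene of the myotubularin family of phosphoinositide phosphatases, gave a ring of 18 and 18 reads (chromosome 8, 40590410 to 40609016, minus strand). It shared its end, 40609016, with a ring that wild type listed too (40597283 to 40609016), with 29 and 33 wild-type and 27 and 38 deletion reads at P12 and P13. The other Mtmr7 rings were at 85.8 and 130 RPM in wild type, against 174 and 206 in the deletion, higher in both deletion libraries.

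Tcf12, which encodes a basic helix-loop-helix transcription factor, gave a ring of 20 and 16 reads (chromosome 9, 71917005 to 71922787). It began at 71917005 like the commonest Tcf12 ring (71917005 to 71944018), which had 69 and 76 wild-type and 53 and 43 deletion reads. Chd1l, a chromatin remodeller gene, gave one of 11 and 13 reads (chromosome 3, 97581003 to 97594170). Wild type held a ring with the same end and a start 24 bases away (97580979 to 97594170; 26 and 41 reads), which had 6 and 9 in the deletion. Hivep2, a zinc finger transcription factor gene, gave the leading intron-class ring (chromosome 10, 14004201 to 14086082), with 10 and 12 reads.

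In several hosts the other rings differed between the genotypes as well. Snx5, a sorting nexin gene, gave a ring of 265 bases with 5 and 12 reads (chromosome 2, 144255340 to 144255604). Its other rings were at 334 and 377 RPM in wild type, against 81.2 and 165 in the deletion. Gldc, which encodes the glycine decarboxylase of the glycine cleavage system, gave one of 11 and 9 reads (chromosome 19, 30145147 to 30145765). Its other rings were at 91.0 and 69.5 RPM in wild type, against 38.7 and 17.2 in the deletion. In Snx5 and Gldc the wild-type libraries were both above the deletion libraries for the other rings, the reverse of the listing that chose their member.

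Cdon, which encodes a cell-surface co-receptor for Hedgehog ligands, gave 2 rings that both began at 35457397 on chromosome 9. They ended at 35473565 (6 and 10 reads) and 35491924 (2 and 4 reads), and no circRNA of wild type began there. For the other Cdon rings the wild-type reads were 29 and 17, and the deletion reads 2 and 5. Prex1, a Rac exchange factor gene, also gave 2 rings with a common end (chromosome 2, 166609738 to 166647045 with 7 and 10 reads, and 166617833 to 166647045 with 12 and 4). Its leading wild-type ring (166609738 to 166613260) had 11 and 26 reads there and was unlisted in deletion P12, with 6 in deletion P13.

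Dnah9, an axonemal dynein heavy chain gene of motile cilia, and Baz2b, a bromodomain gene, were the other hosts with 3 rings each. The Dnah9 rings were small (3 and 5, 3 and 3, and 2 and 4 reads in deletion P12 and P13). For the 22 other Dnah9 rings the wild-type reads were 22 and 14 (38.5 and 21.6 RPM), and the deletion reads 44 and 73 (170 and 251 RPM). The deletion libraries were thus above the wild-type libraries for the host's other rings too. Baz2b gave rings of 4 and 6, 7 and 2, and 5 and 3 reads, beside other rings at 877, 857, 1200 and 994 RPM.

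**Figure D3:**
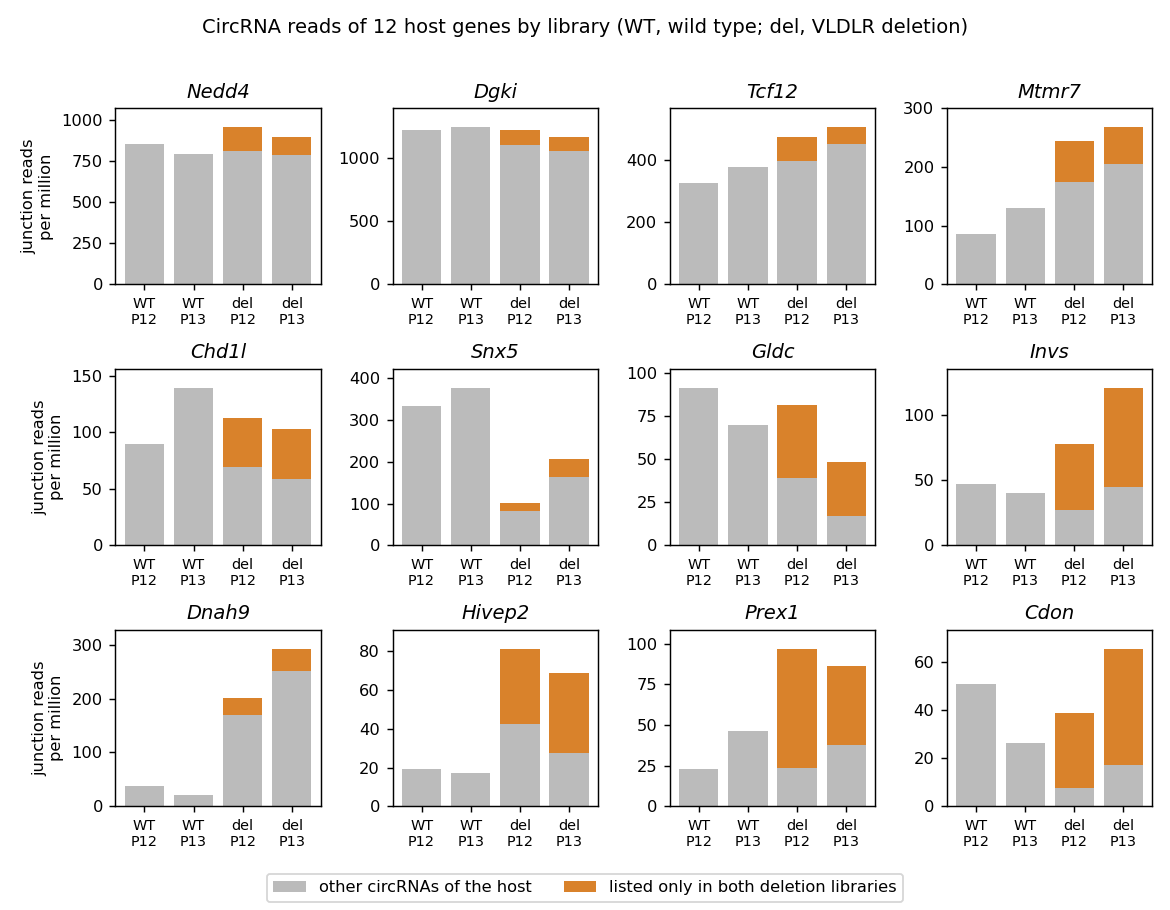
Junction reads per 1000000 scaled junction reads (y axis) of 12 host genes in each of the 4 libraries (x axis), 1 library per bar and with no error bar. Orange is the part from circRNAs listed only in both deletion libraries and grey the part from all other circRNAs of the host; the hosts were picked for show after their values were seen. The grey part is alike in the 4 libraries for Nedd4 (between 791 and 858), higher in the deletion for Dnah9 (170 and 251 against 38.5 and 21.6) and lower there for Snx5 (81.2 and 165 against 334 and 377).

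The remaining leaders held fewer reads. Stard7, a lipid transfer protein gene, gave 7 and 15 reads in deletion P12 and P13 (chromosome 2, 127290772 to 127292250). Nek7, a NIMA-related kinase gene, gave 13 and 5 (chromosome 1, 138532737 to 138544343), and Memo1 gave 11 and 6 (chromosome 17, 74241905 to 74245087). The long non-coding RNA gene Mir100hg gave 8 and 8 (chromosome 9, 41393194 to 41528200), and Arhgef12 gave 8 and 8 (chromosome 9, 43040540 to 43044287). Crx, a transcription factor gene of photoreceptors, gave 8 and 7 (chromosome 7, 15871144 to 15879884), and Rfx3, a transcription factor gene for ciliary genes, gave 6 and 9 (chromosome 19, 27849711 to 27849969) beside another ring of 4 and 3 (27900779 to 27982946). Reads of the 2 deletion libraries thus differed by up to 8 in these rings.

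The corepressor gene Nrip1 gave 9 and 6 reads (chromosome 16, 76330746 to 76352546), but wild type listed a ring with the same start and an end 3 bases away. That ring (76330746 to 76352549) was listed at 3 reads in the P12 wild-type library, was unlisted in the P13 one, and had 13 and 6 reads in the deletion libraries. In all, 7 circRNAs of the set had a wild-type ring with both ends within 10 bases, and 4 within 5 bases. For the other 451 no such near match was listed in wild type.

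The ends of the rings were compared with those of other rings in wild type. Of the 458, 120 had both ends in use by other circRNAs of wild type (26.2%, 22.2% to 30.5%), 225 had 1 such end (49.1%) and 113 had neither (24.7%, 20.8% to 28.9%). Among the 25 leaders these numbers were 8, 13 and 4, the last being those of Nedd4, Invs, Trim43b and Mtfmt. Where 1 end was in use, it was the acceptor in 123 and the donor in 102, by the deposited strand.

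Ends shared with other wild-type rings were commoner among circRNAs of both deletion libraries that wild type listed too. In that group 50.6% (49.7% to 51.5%) had both ends in use by another ring and 11.7% (11.1% to 12.3%) neither. With 4 to 9 reads these shares were 42.4% (40.7% to 44.2%) and 15% (13.8% to 16.3%), against 28.8% (24.1% to 33.9%) and 25% (20.5% to 29.9%) in the set at the same reads. These shares are a description: the wild-type listing that chose the set is also the one that gives the ends in use. For circRNAs listed only in both wild-type libraries, set against other rings of the deletion, 23.7% (22.5% to 25%) had both ends in use and 29.8% (28.4% to 31.2%) neither.

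**Figure D4:**
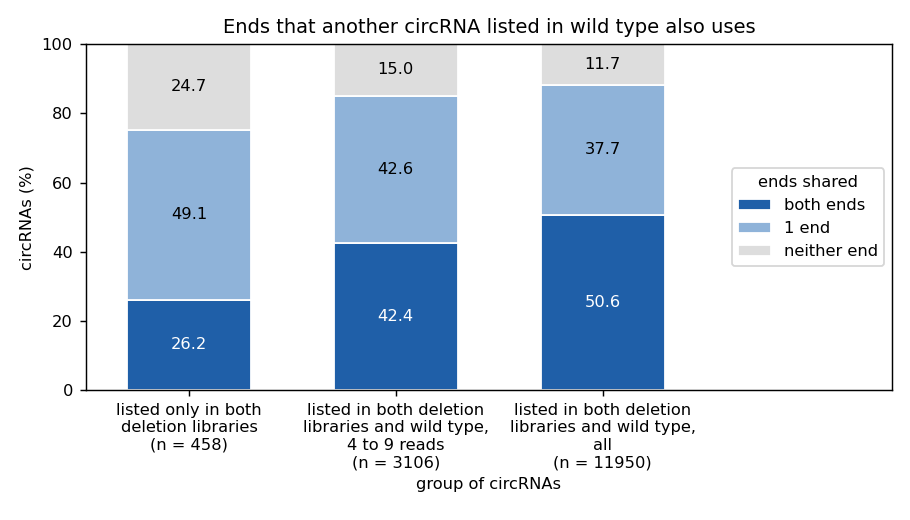
Percent of circRNAs (y axis) that have both ends, 1 end or neither end in use by another circRNA listed in wild type, for the 458 listed only in both deletion libraries and for those that wild type listed too (x axis). The share with both ends in use is 26.2% in the set, 42.4% among the others with 4 to 9 reads and 50.6% among all others.

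The set used 909 start and end positions, of which 447 were ends of no circRNA listed in wild type, 211 on the acceptor side and 236 on the donor side. Of the 447, 38 ended 2 or more circRNAs of the deletion. The Dgki acceptor carried the most reads (70 over both libraries), before the Nedd4 acceptor at 72731222 (52) and the Nedd4 donor at 72735239 (47). The Invs donor at 48385272 and acceptor at 48382105 followed with 40 and 37, and the Mtmr7 donor at 40590410 with 36.

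By class, 381 were exonic (83.2%, 79.4% to 86.5%), 48 intronic (10.5%, 7.83% to 13.7%) and 29 intergenic (6.33%, 4.28% to 8.97%). The circRNAs of both deletion libraries that wild type listed too were 90.3% exonic (89.8% to 90.8%) and 5.51% intronic (5.11% to 5.94%). Among circRNAs with 4 to 5 reads the exonic shares were 88.0% in the set and 86.1% outside it, with 6 to 7 reads 80.6% and 88.0%, with 8 to 9 reads 84.4% and 89.6%, with 10 to 14 reads 80.0% and 89.7% and with 15 to 19 reads 88.2% and 90.5%. Of the 7 rings with 20 to 29 reads 42.9% were exonic, against 91.7% outside the set, and the 5 with 30 to 49 reads were all exonic. The exonic share of the set was thus lower in the classes from 6 to 29 reads, and not at 4 to 5 or at 30 to 49.

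Trim43b, a gene of the tripartite-motif family with close copies among which reads may be split, hosted the intronic ring next to Hivep2 in reads (chromosome 9, 89091255 to 89091634; 8 and 14 reads), and Rint1 the next (chromosome 5, 23800595 to 23801145; 2 and 13 reads). The leading intergenic rings lay at 4163855 to 4284898 on chromosome 1 (17 and 12 reads), 97813313 to 97833284 on chromosome 13 (8 and 16) and 88391764 to 88402256 on chromosome 5 (4 and 11).

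The rings of the set spanned a median of 7865 bases of genome (quartiles 2953 and 19803), against 10250 (3963 and 23384) outside it. In circRNAs with 6 to 7 reads the medians were 6919 and 10553 bases, with 8 to 9 reads 5764 and 10688, and with 15 to 19 reads 10493 and 10177. Spans under 500 bases made up 4.59% (2.86% to 6.92%) of the set and 2.8% (2.51% to 3.12%) of the others, and spans of 100000 bases or more 2.84% (1.52% to 4.8%) and 2.29% (2.03% to 2.58%). Among the 13 rings of 100000 bases or more, those with the most reads were the chromosome 1 intergenic ring, that of Mir100hg and an intergenic one on chromosome 11 (38407986 to 38508666; 8 and 3 reads). Among those under 500 bases, the rings of Trim43b, Snx5 and Rfx3 had the most reads.

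The junction ratio is the share of reads at the splice positions that are back-spliced, with junction reads counted 2 times. Its median in the set was 0.182 in deletion P12 (quartiles 0.085 and 0.353) and 0.163 in deletion P13 (0.0715 and 0.344), against 0.29 and 0.292 outside it. The difference went with the read level. With 4 to 5 reads the P12 medians were 0.111 in the set and 0.103 outside it, with 6 to 7 reads 0.16 and 0.14, and with 10 to 14 reads 0.267 and 0.219. At like reads up to 14 the set was thus not below the others.

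**Figure D5:**
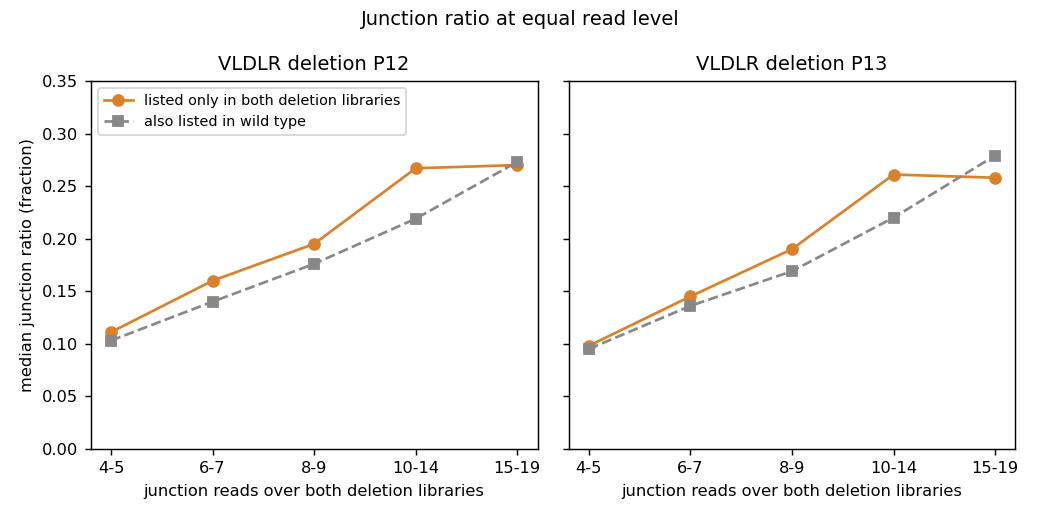
Median junction ratio (y axis, a fraction) by junction reads over both deletion libraries (x axis, in classes that hold at least 17 circRNAs of the set), in deletion P12 on the left and deletion P13 on the right. Orange is the set listed only in both deletion libraries and grey the circRNAs that wild type listed too, with no error drawn. At 10 to 14 reads the P12 medians are 0.267 and 0.219, and at 15 to 19 reads 0.27 and 0.273.

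Among the 8 with at least 10 reads in each deletion library the ratio ranged widely and was alike at both days. It was highest for Hivep2 (0.741 at P12 and 0.828 at P13) and Invs (0.667 and 0.786). Mtmr7 had 0.571 and 0.456 and Chd1l 0.5 and 0.456. Dgki had 0.269 and 0.367, Tcf12 0.234 and 0.216, and Nedd4 0.177 and 0.136. The chromosome 1 intergenic ring had 0.021 and 0.013, with 1617 and 1835 non-junction reads at its positions. The ratio was thus above 0.5 in both libraries for Invs and Hivep2, and below 0.2 in both for Nedd4 and the chromosome 1 ring.

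The hosts were spread over the genome. The 429 rings with a host came from 396 genes, of which 366 gave 1 ring, 26 gave 2 and 4 gave 3. For 397 of the rings the host had other circRNAs in wild type, with a median of 8 and up to 93. The remaining 32 came from hosts with no circRNA in wild type. Those with most reads were Trim43b, Rint1 (2 and 13 reads), Mtfmt, which encodes the mitochondrial methionyl-tRNA formyltransferase (chromosome 9, 65439530 to 65441688; 14 and 5 reads), and Npat, a regulator of histone genes (chromosome 9, 53566717 to 53567024; 9 and 6). All other circRNAs of the 396 hosts took 15.6% (P12) and 16.1% (P13) of wild-type reads, and 16.4% (P12) and 16.6% (P13) of deletion reads.

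By chromosome the share ran from 2.1% of the circRNAs in both deletion libraries on chromosome 13 (1.05% to 3.73%) to 5.14% on chromosome 19 (3.17% to 7.83%), which carries Vldlr. The intervals of all 19 autosomes included the share of 3.69% over all. Of the 25 leaders 8 lay on chromosome 9, a larger part than of the whole set. That chromosome held 39 of the 458 rings and 832 of the 12408 circRNAs in both deletion libraries, and its share was 4.69% (3.35% to 6.35%).

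Host genes were grouped by 21 lists of retinal and other ocular cell types, pathways and gene families. The set had rings in 12 of them. Photoreceptor hosts gave 10 of their 217 circRNAs in both deletion libraries (4.61%, 2.23% to 8.31%), led by Crx, Sag (chromosome 1, 87803904 to 87810367; 5 and 6 reads) and the rod phosphodiesterase gene Pde6b (chromosome 5, 108419698 to 108421535; 5 and 4). All photoreceptor circRNAs together took 1.45% (P12) and 1.66% (P13) of wild-type junction reads and 1.89% and 2.0% of deletion reads, higher in both deletion libraries, and the part of this in the listing was not tested. Synapse hosts gave 11 of 279 (3.94%, 1.98% to 6.94%), led by the 3 of Dgki. Cilium hosts gave 8 of 164 (4.88%, 2.13% to 9.39%), led by Ttll5, a tubulin polyglutamylase gene (3 and 7 reads), and Bbs7, a BBSome subunit gene (2 and 8). The cilium list did not hold Invs or Rfx3. The interval of each of these shares included the 3.69% over all circRNAs.

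Ubiquitin ligase hosts gave 14 of 290 (4.83%, 2.66% to 7.97%), led by 2 of Nedd4 and by Mycbp2 (chromosome 14, 103291018 to 103298863; 7 and 7 reads). Chromatin hosts gave 10 of 370 (2.7%, 1.3% to 4.91%), led by the histone demethylase gene Kdm4c (3 and 11 reads) and the deacetylase gene Hdac9 (7 and 4). Hosts of RNA-binding proteins gave 7 of 172 (4.07%, 1.65% to 8.21%), led by Rbm27 (5 and 6 reads) and Tnrc6c (4 and 6). Widely studied circRNA hosts gave 7 of 288 (2.43%, 0.983% to 4.94%), led by Nrip1 and Rims2 (2 and 6 reads). These shares too had intervals that included 3.69%.

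Wnt and Norrin hosts gave 6 of 59 (10.2%, 3.82% to 20.8%), the highest share of the 20 lists with a circRNA in both deletion libraries and the only interval above 3.69%. The intervals make no allowance for the number of lists. The lists were also not matched on reads, although the share was lower at higher read levels. Invs, which encodes a cilium protein, was counted among the Wnt and Norrin hosts and not among the cilium hosts. The 6 came from Invs, Znrf3 (5 and 2 reads), the Norrin co-receptor gene Lrp5 (4 and 2), Csnk1a1 (2 and 3) and Csnk1g1 (2 rings), and all but that of Invs had at most 5 reads in a library. Lipoprotein receptor and Reelin hosts gave 4 of 47 (8.51%, 2.37% to 20.4%): Lrp1b (4 and 5 reads), Dab1, the adaptor of VLDLR in Reelin signalling (5 and 2), Lrp2 (3 and 3) and Lrp5. That of Dab1 (chromosome 4, 104678702 to 104688436) was among the 7 with a wild-type ring within 10 bases.

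Fatty acid and cholesterol hosts gave 2 of 39 (5.13%, 0.627% to 17.3%), from the phosphatidate phosphatase gene Lpin1 (3 and 10 reads) and Abca4 (3 and 5). Hypoxia-response hosts gave 2 of 72 (2.78%, 0.338% to 9.68%), from Kdm4c and Kdm3a (2 and 3 reads). Hosts of DNA replication, repair and mitosis gave 1 of 79 (1.27%, 0.032% to 6.85%), from Cdk14. Lens (16 circRNAs in both deletion libraries), striated muscle (29), retinal pigment epithelium and melanocyte (20), bipolar cell (17), endothelial (7), corneal (7), amacrine, horizontal and ganglion cell (6) and Müller glia (1) hosts gave 0. Leukocyte and microglia hosts had no circRNA in both deletion libraries.

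The days were compared within the deletion, a contrast that did not choose the set, although a ring had to be listed at both days to be in it. Scaled to TMM effective library sizes, the ratio of P13 to P12 had a median of -0.17 on the log2 scale (quartiles -0.75 and 0.42). It was -0.17 also for the circRNAs with 4 to 9 reads that wild type listed too, and -0.06 for all of those. A value of -0.17 is that of equal reads in both libraries. With few reads only few ratios are possible, so the equal medians are partly forced and show no drop at P13. A circRNA was called where it had at least 20 reads over both libraries, a ratio of at least 2 or at most 0.5 and a 95% exact conditional interval that excluded 1. Of 12 rings in the set with 20 reads, 0 were called higher and 0 lower at P13, against 4.0% and 4.19% of all 5206 circRNAs so compared. The 5206 also held circRNAs unlisted at P12 or at P13 and those on chromosomes X and Y, which the set leaves out. These calls compare 2 libraries and have no replicate check.

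The leading rings were alike at both days within wide intervals. The Dgki ring had a P13 to P12 ratio of 0.988 (0.496 to 1.98), Mtmr7 0.889 (0.436 to 1.81), Nedd4 0.783 (0.421 to 1.45), Tcf12 0.711 (0.345 to 1.45) and Invs 1.51 (0.725 to 3.25). Each of these intervals included 1 and reached at least 1.45, so that moderate differences between the days were not resolved.

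With 10 reads as the least, 114 rings of the set were compared and 2 were called higher and 5 lower at P13, against 4.37% and 4.54% of all 9413 circRNAs. The 9413 too held circRNAs unlisted at P12 or at P13, which could not be in the set. Those higher came from Rint1 (5.78-fold, 1.31 to 52.8) and Lnpk (2 and 11 reads; 4.89-fold, 1.07 to 45.4). Those lower came from Slc24a3, a sodium/calcium-potassium exchanger gene (12 and 2 reads; ratio 0.148, 0.0161 to 0.666), Mtfmt (0.318, 0.0895 to 0.933), Prex1 (12 and 4 reads; 0.296), Tbc1d5 (9 and 2; 0.198) and Pik3c3 (9 and 2; 0.198). The share called lower was near that over all circRNAs, and the share called higher, from 2 rings, was below it.

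The single design with a residual degree of freedom was edgeR's quasi-likelihood test with genotype and day as additive terms over the 4 libraries. It covered 8785 circRNAs, of which 1 was called higher (0.0114%) and 1 lower (0.0114%) at P13, with 314 at an unadjusted p under 0.05. The 8 rings of the set with at least 10 reads in each deletion library were in the fit. By the rule they had 0 wild-type reads, so that for them the day term compared 1 deletion library with 1 other. The fit could therefore not judge the day for these rings. Their log2 day terms ran from -0.64 (chromosome 1 intergenic ring) to 0.57 (Invs), and 0 of the 8 passed. DESeq2 called 0 too.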

How the data were processed

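Per circRNA and library the authors deposited counts of junction and of non-junction reads, whose columns are those of CIRI per the file headers. They also deposited a fraction, the junction ratio, in which junction reads weigh 2 times against non-junction reads. SRPBM values, deposited as a signal, were found to be junction reads over 1 constant in each library. Coordinates are as deposited. Neither labels nor headers used here name the genome build.

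The set was found by identical coordinates. All 396 host identifiers matched a RefSeq gene table (GRCm38.p6), used for names only. Where the class of a circRNA differed between tables, exon had precedence, then intron. Counts were scaled with TMM (edgeR 4.0.16, R 4.3.3) over circRNAs that reached 10 reads in 2 or more libraries. The effective sizes were 571398 (P12) and 647714 (P13) in wild type and 258475 (P12) and 290649 (P13) in the deletion, and RPM values are per 1000000 of these. DESeq2 1.42.0 was an alternative. Intervals are exact (Clopper-Pearson) and, as the reads carry no molecular identifiers, cover counting error only. Both the interval and the edgeR fit were tested on simulated data. In the edgeR simulation every circRNA had expected reads in every library, so that it does not cover the rings of the set. With 1 library per group, a p-value rests on 1 residual degree of freedom among these libraries alone. The set and the lists were chosen with earlier results of these data known. Named were the 25 circRNAs with most reads, the hosts with most rings, those called between days, up to 3 per list, class and span extreme, the 8 ratios, and the edge of the set; other rings were named as partners of these after their values were seen. Sequences were not used here.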

Additional observations from a re-analysis of the deposited data

How the results depend on the processing

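The number of circRNAs in the set, 458, was 232, 62 and 8 when at least 3, 5 and 10 reads were required in each deletion library. It was 1084 after the wild-type libraries were thinned to 299723 reads each. It was between 916 and 2822 when any of the 4 libraries was left out, of which the runs without a deletion library (2822 and 2232) were chosen after seeing the data. It was 454 or 451 without wild-type rings within 5 or 10 bases. It was 458 from the SRPBM tables, which list the same circRNAs and reads and so are no separate check. With other alternatives chosen after seeing the data it was 459 with the chromosome X scaffold and 456 when reads within 2500 pixels on a tile of the flow cell counted once. At 10 reads as the least, 7 rings were called between the days in place of 0, since more were compared. Another scaling, 40 reads as the least and no fold threshold left 0. The edgeR count stayed 0 under each other scaling and filter run and under DESeq2, with 62 rings in the fit at 5 reads and all 458 with no filter. As the rings had 0 wild-type reads in every fit, none of these fits could judge the day for them. All 75 recomputed day ratios of the 25 leaders were inside their intervals. The exonic share ran from 82.3% to 83.4%, the median span from 7783 to 7865 bases and the median junction ratio over both libraries from 0.171 to 0.303. No paired analysis was possible because each group held 1 library and the labels number no replicates. Depth limits the set: 226 of the 458 rings had 2 reads in at least 1 deletion library.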

Other observations

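The reads of the set mostly came from separate places on the flow cell. Counting reads of a circRNA within 2500 pixels on the same tile once left 95.1% (94.0% to 96.0%) of the set's reads at P12 and 92.8% (91.5% to 93.9%) at P13. For circRNAs that wild type listed too, 92.3% were left in each library. These shares were not matched on reads, and a circRNA with more reads can lose more by this counting. They therefore do not compare duplication between the groups. In 456 of 458 rings at least 2 such separate reads remained in both deletion libraries. With 4 to 9 reads this held for 342 of 344 rings of the set and for 3101 of 3106 outside it.

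The hosts with no circRNA in wild type were of several kinds. Besides Trim43b, Mtfmt, Npat and Rint1 they included Rhpn2 (chromosome 7, 35381337 to 35384045; 8 and 5 reads in deletion P12 and P13), the tyrosine phosphatase gene Ptp4a3 (chromosome 15, 73753756 to 73756102; 7 and 5), Noct, which encodes nocturnin (chromosome 3, 51247805 to 51248074; 8 and 3) and the mitochondrial pyruvate carrier gene Mpc2 (chromosome 1, 165474954 to 165481014; 7 and 3). These were picked by reads after their values were seen.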
